A study of Mus musculus with 20 samples.

Results

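The autophagy machinery is described here through 44 genes of bone marrow-derived macrophages (BMDM), chosen by name. All 44 were found by gene symbol among the 14456 genes listed for the 20 RNA-seq libraries, and all 44 passed the filter on low values in each comparison. BMDM are macrophages grown from mouse bone marrow with macrophage colony-stimulating factor, here from wild-type C57BL/6 mice aged 8 weeks. The first experiment set 4 libraries of BMDM from high glucose medium (25 mM) against 4 from normal glucose medium (5.5 mM, with 19.5 mM of mannitol, a sugar alcohol that balances the osmotic pressure), each after 24 h of culture. In the second, naive BMDM were exposed for 24 h to phosphate-buffered saline (PBS, n = 4) or to exosomes, small vesicles that cells release, taken from BMDM cultured in normal glucose (BMDM-NG-exo, n = 4) or in high glucose (BMDM-HG-exo, n = 4). Each exosome library came from a separate exosome preparation, and no library carries a genetic change. In neither experiment is it stated whether the cells of the libraries came from separate animals, so the p-values measure the spread between these libraries. Glucose and mannitol change together between the first pair of groups, and their effects cannot be told apart. The same holds for the cultures that gave the exosomes, with 19.5 mM of glucose added for BMDM-HG-exo and 19.5 mM of mannitol for BMDM-NG-exo.

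Autophagy encloses cytoplasm, damaged mitochondria or microbes in a double membrane, the autophagosome, and delivers them to the lysosome. A kinase complex around ULK1 starts the process, a phosphatidylinositol 3-kinase complex around Beclin 1 marks the membrane, and membrane is then supplied by lipid transfer and scramblase proteins. Conjugating enzymes attach ATG8 proteins (the LC3 and GABARAP families) to the growing membrane, where cargo receptors dock, and tethering proteins finally bring about fusion with lysosomes. Macrophages use the same machinery to limit inflammation and to handle lipid and ingested particles. The values below are RNA levels, given as normalized counts, which are read counts divided by 1 size factor per library, and they do not measure the flow of material through the pathway.

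Between 34016445 and 56310712 reads fell on the listed genes in a library, and the autophagy genes took between 0.326% and 0.357% of them. All 8 macrophage markers, such as Lyz2, Csf1r, Cd68 and Adgre1, were listed in every library. Of 20 markers of other cell types, 5 (S100a8, S100a9, Col1a1, Col1a2 and Pecam1) were listed, with summed normalized counts between 154 and 419 per library, and the other 15 were not among the listed genes. The macrophage markers themselves moved with the groups. Their summed normalized count lay between 628420 and 702912 in normal glucose and between 808014 and 878735 in high glucose. It lay between 794502 and 841224 with PBS, between 717507 and 773976 with BMDM-NG-exo and between 735061 and 759636 with BMDM-HG-exo. Most of each sum was Lyz2, with 447542 to 513420 in normal glucose and 599482 to 664964 in high glucose. In high against normal glucose 6 of the 8 passed the test (75%, against 13.3% of all genes), 4 higher and 2 lower (Cd68 and Mertk). In each exosome group against PBS 5 of the 8 were lower (62.5%). Of all genes, 4.84% passed with BMDM-HG-exo and 3% with BMDM-NG-exo. The part of the markers in the results below was not tested. In such bulk libraries, fewer cells of a type and less RNA per cell cannot be told apart.

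Per kilobase of annotated exon, the autophagy genes covered a wide range of levels (mean over the 20 libraries). Sqstm1, which encodes the cargo receptor p62, stood highest at 6151 normalized counts per kilobase. Gabarap, which encodes an ATG8 protein, came next at 3800, followed by its relative Gabarapl1 at 1372 and by Tecpr1, a tether between autophagosomes and lysosomes, at 1333. The lowest were Atg4d, a protease that processes ATG8 proteins, at 100, Atg16l2, a relative of the conjugation scaffold Atg16l1, at 109.8, and Atg10, the enzyme that joins ATG12 to ATG5, at 131. Within roles the levels were unequal as well. Map1lc3b, the most studied LC3 gene, lay at 674 per kilobase and Map1lc3a at 482, both below Gabarap and Gabarapl1. Among the ATG4 proteases, Atg4c was at 390, Atg4a at 184 and Atg4b at 152. Over the 20 libraries the ranges per kilobase of Atg4a and Atg4b overlapped, while those of Gabarap and Map1lc3b did not. Exon length here joins all annotated transcripts of a gene, and these orders depend on it. It was 7517 bases for Map1lc3b and 2013 for Gabarapl1. By count alone Map1lc3b (at least 4694) lay above Gabarapl1 (at most 3325) in every library. Likewise Atg4d (7264 bases, at least 552) lay above Atg10 (1718 bases, at most 289).

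**Figure D1:**
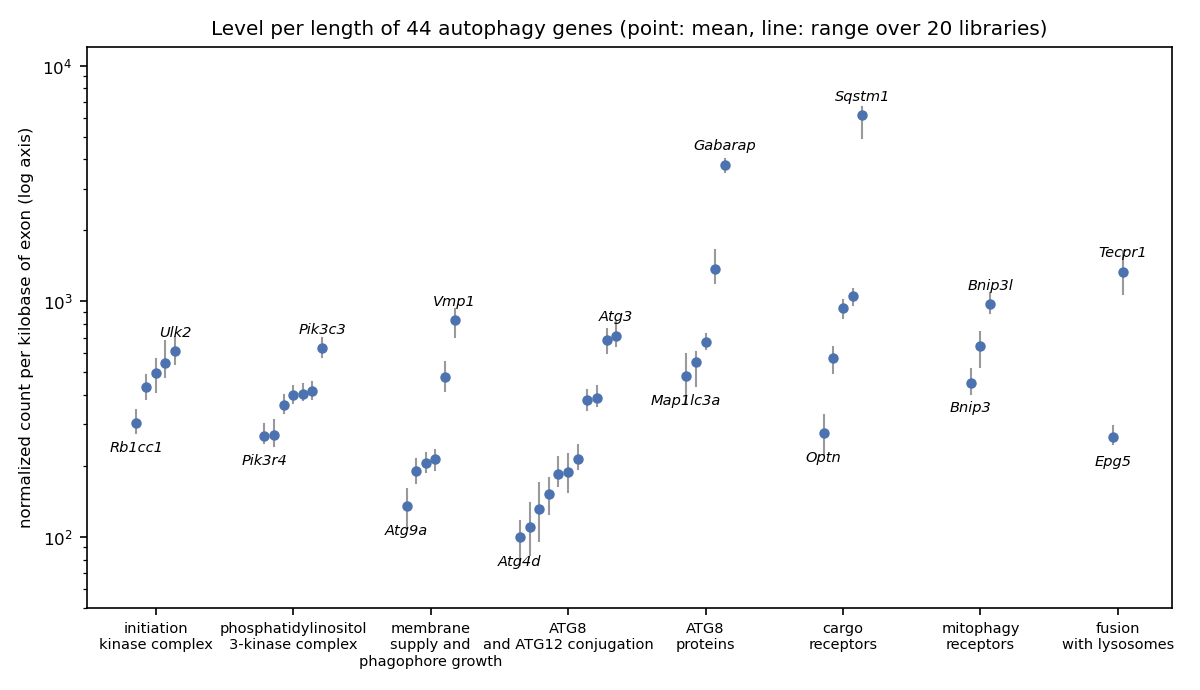
Mean normalized count per kilobase of exon (vertical log axis) of the 44 genes, arranged by role, with a line from the lowest to the highest of the 20 libraries. Sqstm1 stands highest at 6151 and Atg4d lowest at 100, and the highest and lowest gene of each role are named.

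Most of these genes varied little from library to library. Over the 20 libraries the coefficient of variation ran from 3.76% for Gabarap to 14.9% for Atg10, the gene with the fewest reads (149 to 348 per library). Tecpr1 and Sqstm1 did not follow that order. Tecpr1, read 12759 to 23360 times per library, had a coefficient of variation of 10.9%, and Sqstm1, with 15481 to 27554 reads, one of 8.74%. For Sqstm1 the normal glucose libraries, and for Tecpr1 the high glucose libraries, lay below those of all other groups, as the values below show.

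**Figure D2:**
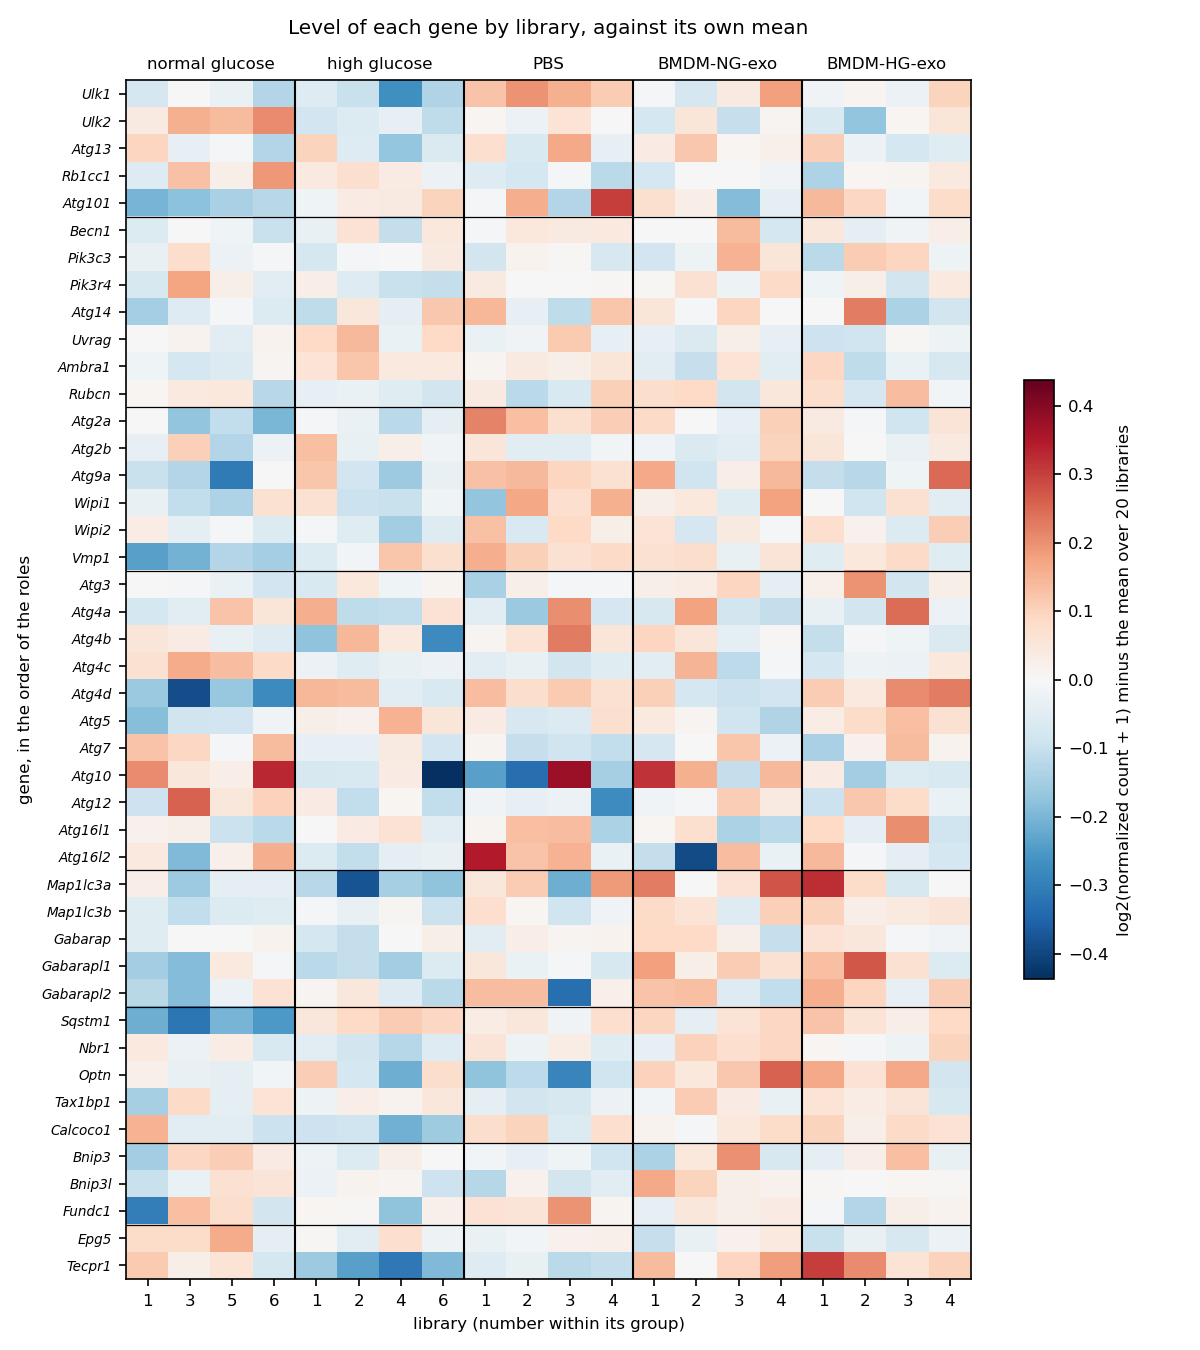
Difference of each gene's log2(normalized count + 1) from its own mean over 20 libraries (color), with genes in rows by role and libraries in columns by group. The rows of Sqstm1, Vmp1 and Atg4d are blue in the 4 normal glucose libraries and the row of Tecpr1 is blue in the 4 high glucose libraries, while most other rows show no block of one color.

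In high glucose the RNA of the cargo receptor gene Sqstm1, the scramblase gene Vmp1 and the protease gene Atg4d was higher than in normal glucose, and that of the initiating kinase gene Ulk2 and the tether gene Tecpr1 was lower. The changes were small, at most 0.33 on the log2 scale. These were 5 of the 44 genes (11.4%, 3 higher and 2 lower), against 13.3% of all 14425 genes tested (7.74% higher and 5.53% lower). The share among the autophagy genes was near the background. Their median log2 fold change was -0.018, with an absolute median of 0.069 against 0.12 over all genes. Here and below, the test was limma's two-sided moderated test on log2(normalized count + 1), and a gene was called at a Benjamini-Hochberg adjusted p-value under 0.05 over all genes tested. Before adjustment, 11 of the 44 had a p under 0.05.

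The sequences upstream of the genes on which the glucose results turn were compared for known response elements. Each run holds the 250 bases before the transcription start in the RefSeq promoter table (build GRCm38.p6), written 5′ to 3′ in the direction of the gene. Capitals mark TGACNNNGC, the core of the antioxidant response element to which the stress factor NRF2 binds, on either strand.
Sqstm1, chr11:50210821-50211070 (- strand): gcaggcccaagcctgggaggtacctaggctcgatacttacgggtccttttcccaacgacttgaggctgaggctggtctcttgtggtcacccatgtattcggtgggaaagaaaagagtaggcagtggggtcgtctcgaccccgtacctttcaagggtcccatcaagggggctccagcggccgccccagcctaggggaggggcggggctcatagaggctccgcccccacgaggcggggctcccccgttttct
Vmp1, chr11:86683837-86684086 (- strand): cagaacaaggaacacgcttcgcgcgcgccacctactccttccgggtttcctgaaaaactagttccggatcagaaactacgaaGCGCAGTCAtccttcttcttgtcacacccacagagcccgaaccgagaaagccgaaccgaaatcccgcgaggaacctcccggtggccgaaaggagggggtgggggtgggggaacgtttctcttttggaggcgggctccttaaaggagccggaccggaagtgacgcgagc
Ulk2, chr11:61855093-61855342 (- strand): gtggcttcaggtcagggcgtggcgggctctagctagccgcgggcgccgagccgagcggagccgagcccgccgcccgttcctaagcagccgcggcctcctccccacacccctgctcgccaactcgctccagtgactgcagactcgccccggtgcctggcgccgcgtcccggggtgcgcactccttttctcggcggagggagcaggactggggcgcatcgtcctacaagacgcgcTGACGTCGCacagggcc
Tecpr1, chr5:144223616-144223865 (- strand): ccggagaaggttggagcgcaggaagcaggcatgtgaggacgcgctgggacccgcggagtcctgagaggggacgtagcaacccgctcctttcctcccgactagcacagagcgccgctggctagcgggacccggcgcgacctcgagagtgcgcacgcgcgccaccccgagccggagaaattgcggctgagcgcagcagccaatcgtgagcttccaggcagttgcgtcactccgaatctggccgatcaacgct

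In the Ulk2 run the match begins 17 bases before the start, and in the Vmp1 run, on the opposite strand, 168 bases before it. The runs of Sqstm1 and Tecpr1 held no match, and neither did that of Atg4d, which was also called and is not printed. Sequence farther upstream than 250 bases was not examined, so an element there would be missed. Of the 44 genes, 36 matched the promoter table, with 43 promoters, since some genes have several starts, and Vmp1 has 3. TGACNNNGC was found on either strand in 6 of the 43 (14%, at Ulk2, Atg13, Vmp1 and Tax1bp1) and in 10.2% of all 32851 promoters. CACGTG, the E-box core read by TFEB and related factors, was found in 5 of 43 (11.6%, at Rubcn, Atg3, Atg5, Atg7 and Bnip3) against 6.02% of all promoters. The longer CLEAR element, a palindrome that contains that core, was found in 0 of 43 and in 0.24% of all. TGAGTCA, the AP-1 site, which can overlap TGACNNNGC on the other strand, was found in 0 of 43 and in 4.46% of all, and the core of the interferon-stimulated response element in 0 of 43 and in 2.98%. The promoters of the autophagy genes had a median GC content of 59.6%, against 52.4% for all promoters. A match is a description of these letters and not a binding site.

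Sqstm1 (chr11:50199366-50210827, GRCm38, minus strand) had normalized counts of 17718, 16516, 17864 and 17265 in the 4 normal glucose libraries. In the high glucose libraries it had 21283, 21856, 22204 and 21869. Every high glucose library lay above every normal glucose library. The means were 17341 ± 606 and 21803 ± 382 (SD, n = 4 each), and the log2 fold change was 0.33 (SE 0.034, adjusted p = 3.18e-09). The call held in all 8 fits that left out 1 library, with log2 fold changes between 0.31 and 0.35. Its exons overlap those of Mrnip on the other strand over 580 bases, and the reads were counted by strand.

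The exosome experiment gives a second view of Sqstm1. The PBS libraries had 21049, 21262, 20367 and 21623, the BMDM-NG-exo libraries 21964, 20029, 21422 and 21902, and the BMDM-HG-exo libraries 22438, 21429, 20957 and 21836. These 3 groups overlapped one another and the high glucose libraries, so that the 4 normal glucose libraries were below all other 16. The authors scaled all 20 libraries together, but the experiments were separate cultures, and a difference between experiments cannot be told apart from one between the treatments. Such a placing below all other libraries was seen in 3 of the 44 genes, Sqstm1, Vmp1 and Atg4d, and in 3.61% of all genes in either direction.

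Vmp1 (chr11:86583865-86683836, minus strand) encodes a scramblase of the endoplasmic reticulum that autophagosomes need to grow. It had 2708, 2768, 2921 and 2880 in normal glucose, against 3061, 3166, 3471 and 3353 in high glucose. Again the groups did not overlap. The log2 fold change was 0.21 (SE 0.049, adjusted p = 0.00258). With PBS the counts were 3564, 3430, 3342 and 3387, with BMDM-NG-exo 3345, 3366, 3123 and 3323, and with BMDM-HG-exo 3079, 3294, 3384 and 3075. All 12 lay above the normal glucose libraries. The other membrane supply genes, Atg2a and Atg2b, which transfer lipid, Atg9a, which carries seed membrane, and Wipi1 and Wipi2, which bind phosphatidylinositol 3-phosphate, had log2 fold changes between -0.048 and 0.095 and none passed the test.

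Atg4d (chr9:21265293-21277772, plus strand) had 645, 552, 644 and 595 in normal glucose, against 799, 795, 698 and 689 in high glucose, with no overlap. The log2 fold change was 0.29 (SE 0.085, adjusted p = 0.0182). The call was lost without normal glucose library 3 (adjusted p = 0.064), without high glucose library 1 (0.0721) or without high glucose library 2 (0.0755). Its exons overlap those of Kri1 on the other strand over 1405 bases. Its relatives did not share the call. Atg4a and Atg4b had log2 fold changes of -0.012 and -0.067, and Atg4c, all of whose high glucose libraries lay below the normal glucose libraries, had -0.15 (adjusted p = 0.103).

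The other conjugation genes attach ATG8 proteins to lipid or ATG12 to ATG5. Atg5, the acceptor of ATG12, had 1411, 1511, 1517 and 1588 in normal glucose, against 1636, 1629, 1784 and 1666 in high glucose. The groups did not overlap, with a log2 fold change of 0.16 (SE 0.058), but the adjusted p was 0.0724. Atg7, the E1-like enzyme of both reactions, stood at a log2 fold change of -0.12, short of a call (adjusted p = 0.124). Atg3, Atg12, Atg16l1 and Atg16l2 ranged from -0.12 to 0.054. Atg10 had the largest fold change of a gene that did not pass, -0.29, with an interval from -0.58 to 0.0042.

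Ulk2 (chr11:61775649-61855073, minus strand) encodes one of the kinases that start autophagy. It had 3757, 4072, 4031 and 4218 in normal glucose, against 3456, 3512, 3569 and 3389 in high glucose. The high glucose libraries all lay below the normal glucose ones, and the log2 fold change was -0.21 (SE 0.045, adjusted p = 0.00129). In the exosome experiment it had 3684, 3596, 3810 and 3650 with PBS, 3468, 3795, 3414 and 3691 with BMDM-NG-exo and 3492, 3249, 3677 and 3791 with BMDM-HG-exo. Taken as 12 values they overlapped both glucose groups. Ulk1, the better known kinase of the complex, stood at a log2 fold change of -0.081, short of a call (adjusted p = 0.327). Its partners Atg13 and Rb1cc1 had -0.027 and -0.042. Atg101, which stabilizes ATG13, had 0.20 (adjusted p = 0.0631) with no overlap between the groups.

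Tecpr1 (chr5:144194442-144223615, minus strand) had 18312, 17225, 17647 and 16061 in normal glucose, against 15148, 14345, 13637 and 14799 in high glucose. The groups did not overlap, and the log2 fold change was -0.26 (SE 0.039, adjusted p = 6.81e-06). The high glucose libraries were the lowest of all 20, which held for 1 of the 44 genes and, in either direction, for 1.94% of all genes. Epg5, the other tether gene, stood at a log2 fold change of -0.069, short of a call (adjusted p = 0.418).

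The remaining roles showed no call in high glucose. Among the 7 genes of the phosphatidylinositol 3-kinase complex, log2 fold changes ran from -0.077 for Pik3r4, a regulatory subunit, to 0.10 for Ambra1, a Beclin 1 partner. Ambra1 had 2417, 2318, 2345 and 2468 in normal glucose, against 2547, 2662, 2522 and 2522 in high glucose, with no overlap but an adjusted p of 0.177. Becn1 itself, which encodes Beclin 1, had 0.037, and the catalytic subunit gene Pik3c3 -0.015. The 5 ATG8 genes ran from -0.15 for Map1lc3a to 0.041 for Gabarapl2. Map1lc3a had 577, 506, 550 and 550 in normal glucose, against 520, 434, 511 and 499 in high glucose, which overlapped (adjusted p = 0.319). The cargo receptors other than Sqstm1, which bind ubiquitin or ATG8 proteins, had -0.073 for Nbr1, -0.012 for Optn, 0.030 for Tax1bp1 and -0.13 for Calcoco1 (adjusted p = 0.0987). The mitophagy receptors Bnip3, Bnip3l and Fundc1, which mark mitochondria for removal, had -0.035, -0.021 and 0.0092. Bnip3 had 913, 1080, 1092 and 1039 in normal glucose, against 997, 971, 1032 and 1014 in high glucose, with the high glucose values inside the range of the others.

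The groups did not overlap for 9 of the 44 genes (20.5%, 6 higher and 3 lower in high glucose), against 16.3% of all genes. For the 39 genes not called, the log2 fold change lay between -0.29 and 0.20. For 38 of them the 95% interval stayed within 0.5 in either direction, the exception being Atg10. The intervals of the 44 genes had a median half-width of 0.11. With exact two-sided permutations of 4 against 4 libraries the smallest p is 0.0286, which Sqstm1, Vmp1, Atg4d, Ulk2 and Tecpr1 each reached. Any gene whose groups do not overlap has this p, as Ambra1 and Atg5 did without a call. The exact test thus adds nothing to the lack of overlap. Benjamini-Hochberg adjustment of these exact tests (60 in all, on 12 genes) gave p = 0.122 for each of the 5 called genes, and for Ambra1 and Atg5. Without the mean-variance trend in limma, Sqstm1 kept its call (adjusted p = 0.0115), while Tecpr1, Ulk2, Vmp1 and Atg4d lost theirs, with adjusted p = 0.0518, 0.0571, 0.0777 and 0.0854. Sequence shared with other genes touched none of the 5. Of the 44, 10 had a stretch of at least 100 bases with at least 98% identity to another gene, and all 10 are less certain. For 4 of them, Map1lc3b, Bnip3l, Calcoco1 and Wipi2, such a gene was listed. The longest stretches, 2115 bases of Atg4a and 1832 of Atg9a, matched genes that were not listed.

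**Figure D3:**
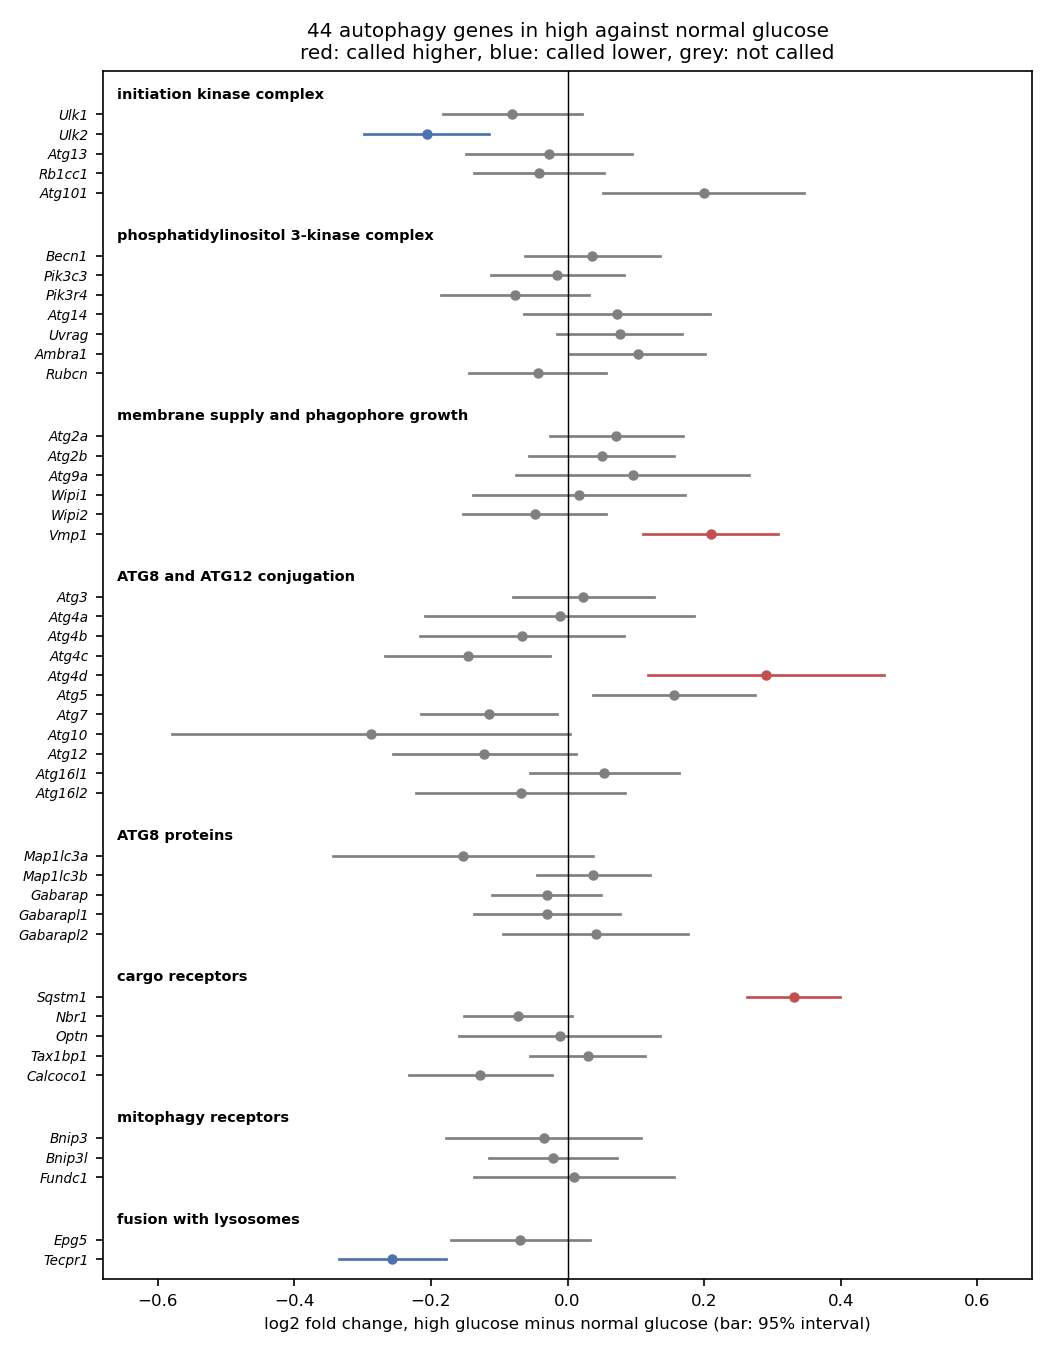
Log2 fold change of high against normal glucose (horizontal axis) of the 44 genes by role, with 95% intervals from limma (n = 4 libraries per group). Red points (Sqstm1, Vmp1 and Atg4d) were called higher, blue points (Ulk2 and Tecpr1) lower, and the grey points did not pass the test.

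Genes that work beside the machinery were read from the same fit. Of 78 related genes in 5 lists, 14 were called in high glucose (4 higher and 10 lower, 17.9% against the background of 13.3%), with a median log2 fold change of -0.020. Leaving out normal glucose library 5 gave 8 calls, and leaving out high glucose library 6 gave 6. In the list of mTORC1, AMPK and TSC genes, which sense nutrients and energy, 3 of 18 were lower and none was higher. These were Sesn3 (-0.65, adjusted p = 3.22e-07) and Sesn1 (-0.27, adjusted p = 3.62e-05), which restrain mTORC1, and Prkab2 (-0.31, adjusted p = 0.0194), an AMPK subunit. In the mitophagy list Pink1, which encodes a kinase that marks damaged mitochondria, was lower (-0.17, adjusted p = 0.00809). Of 17 genes of lysosomal nutrient sensing, Slc38a9 and Rragd were lower (-0.22 and -0.26) and Mitf higher (0.14). Of 14 fusion genes Rab7 (0.16) and Plekhm1 (0.12), which act on late endosomes, were higher. Of 19 other autophagy genes Trim21 was higher (0.25) and Ncoa4, Stbd1 and Tbc1d5 were lower (-0.16, -0.67 and -0.12).

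NRF2 and its target genes were listed beside Sqstm1 because Sqstm1 is a known target of NRF2 and its protein binds KEAP1, the inhibitor of NRF2. In high glucose 8 of the 10 were called, all higher (80%, against 13.3% of all genes tested). The smallest adjusted p-values were those of Gclm (0.92, SE 0.048, adjusted p = 1.40e-16) and Txnrd1 (0.69, SE 0.039, adjusted p = 8.24e-16). Slc7a11 had the largest change, 1.41 (SE 0.22). The summed normalized count of the 10 ran from 34549 to 36568 in normal glucose and from 47309 to 51558 in high glucose. With PBS it ran from 43671 to 47823, with BMDM-NG-exo from 41763 to 47016 and with BMDM-HG-exo from 45013 to 47721, so that the normal glucose libraries were again the lowest. HIF target genes respond to low oxygen, and Bnip3 is known to belong to them too. Of 10 that were listed, 5 were higher and 2 lower (70% called, against 13.3% of all genes). Ldha had 0.34 and Slc2a1 0.54, while the 2 lower genes were Vegfa (-0.18) and Ndrg1 (-0.13). Whether these lists and Sqstm1 share a cause was not tested.

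Exposure to BMDM-HG-exo, set against PBS and BMDM-NG-exo taken as 1 control group of 8 libraries, gave no call among the 44 genes. The call here also needed a log2 fold change of 0.15 or more in either direction, and 0.201% of the 14413 genes tested met both limits. The edgeR and DESeq2 tests also called 0 of 44, and before adjustment limma gave 1 of the 44 a p under 0.05. That gene was Tecpr1, with a log2 fold change of 0.15 (SE 0.050, adjusted p = 0.194). The other fold changes ran from -0.11 for Atg4b to 0.12 for Atg4d, with a median over the 44 of 0.010. The 95% intervals of all 44 stayed within 0.5 in either direction, and the farthest bound was 0.36, of Atg10. No gene of the 44 had BMDM-HG-exo libraries apart from all 8 controls, which 1.17% of all genes had.

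The 5 genes with the smallest p in that comparison show how close the groups lay. For Atg4b the BMDM-HG-exo libraries had 1170, 1251, 1242 and 1205, those with PBS 1268, 1311, 1472 and 1307 and those with BMDM-NG-exo 1344, 1304, 1225 and 1264. The BMDM-HG-exo values lay below all PBS values but overlapped BMDM-NG-exo. For Atg5 the order was BMDM-HG-exo with 1644, 1697, 1761 and 1682, PBS with 1648, 1529, 1540 and 1687 and BMDM-NG-exo with 1656, 1619, 1513 and 1467, all overlapping. For Atg2a the BMDM-HG-exo libraries had 3769, 3649, 3452 and 3814, PBS 4263, 4020, 3855 and 3954, and BMDM-NG-exo 3885, 3669, 3580 and 3941. The BMDM-HG-exo values of Atg2a lay below PBS but within reach of BMDM-NG-exo. Atg4d had 781, 744, 834 and 843 with BMDM-HG-exo, 794, 761, 782 and 756 with PBS and 776, 685, 677 and 681 with BMDM-NG-exo, and the groups overlapped.

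Against PBS alone, Tecpr1 and Optn were higher with both kinds of exosomes. With BMDM-HG-exo these were 2 of the 44 genes (4.55%), against 4.84% of all genes tested, and with BMDM-NG-exo again 2, against 3% of all genes. Both comparisons use the same 4 PBS libraries, so they are not independent of each other. Tecpr1 had 16283, 16542, 15581 and 15734 with PBS, 18621, 16938, 18082 and 19209 with BMDM-NG-exo and 20882, 19535, 17650 and 18150 with BMDM-HG-exo. Every exosome library lay above every PBS library. The log2 fold change was 0.25 for BMDM-HG-exo (SE 0.041, adjusted p = 8.47e-05) and 0.18 for BMDM-NG-exo (SE 0.041, adjusted p = 0.00581). Both calls held in all 12 fits that left out 1 library. Of these, the fits without a library of the other exosome kind leave the fold change as it was.

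Optn (chr2:5020642-5064051, minus strand) encodes optineurin, a cargo receptor for damaged mitochondria and bacteria. It had 914, 955, 845 and 974 with PBS, 1109, 1067, 1121 and 1237 with BMDM-NG-exo and 1159, 1080, 1158 and 977 with BMDM-HG-exo. The exosome libraries lay above the PBS libraries, though the lowest BMDM-HG-exo library, at 977, was close to the highest PBS library, at 974. The log2 fold change was 0.30 for BMDM-NG-exo (SE 0.074, adjusted p = 0.0144) and 0.24 for BMDM-HG-exo (SE 0.074, adjusted p = 0.0427). The first call was lost without PBS library 3 (adjusted p = 0.0636) or BMDM-NG-exo library 4 (0.0742), and the second without any 1 of 6 libraries (PBS 1, 2 or 3, or BMDM-HG-exo 1, 2 or 3), with adjusted p between 0.0582 and 0.156. It was also lost with edgeR (adjusted p = 0.0502). Without the trend in limma neither Tecpr1 nor Optn was called in either comparison, with adjusted p of 0.0706 and 0.123 for BMDM-HG-exo and of 0.246 and 0.106 for BMDM-NG-exo.

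The remaining genes did not pass against PBS. With BMDM-HG-exo the ATG8 genes had log2 fold changes between 0.020 for Gabarap and 0.12 for Gabarapl1 (adjusted p = 0.281), and with BMDM-NG-exo between 0.022 for Gabarap and 0.11 for Gabarapl1. Ulk1 had -0.13 with BMDM-HG-exo (adjusted p = 0.148) and -0.11 with BMDM-NG-exo (adjusted p = 0.292). Bnip3l had 0.14 with BMDM-NG-exo (adjusted p = 0.108) and Atg16l2 -0.24 (adjusted p = 0.165). The groups did not overlap for 5 of the 44 genes with BMDM-HG-exo (2 higher and 3 lower than PBS), against 10% of all genes, and for 3 with BMDM-NG-exo, all higher, against 8.29%. The 3 lower with BMDM-HG-exo were Ulk1, Atg2a and Atg4b.

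Of the 78 related genes, 5 were called against PBS with BMDM-HG-exo (6.41%, against 4.84% of all genes). With BMDM-NG-exo 4 were called (5.13%, against 3%). No gene of the mTORC1, AMPK and TSC list or of the fusion list was among them. Of 17 genes of lysosomal nutrient sensing, 14 did not pass against PBS with either kind of exosomes. With BMDM-HG-exo 3 were higher (17.6%, against 4.84% of all genes, with a list median of 0.012), namely Rragd, a Rag GTPase (0.46, SE 0.081, adjusted p = 1.69e-04), and Fnip2 and Fnip1, partners of folliculin (0.28 and 0.22). With BMDM-NG-exo, against the same PBS libraries, Rragd, Fnip2 and Fnip1 were called higher too, at 0.39, 0.21 and 0.17 (17.6%, against 3% of all genes, with a list median of 0.024). Of 19 other autophagy genes Tbc1d15, which acts on RAB7 at mitochondria, was higher in both (0.18 and 0.20).

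Between the exosome kinds none of the 44 genes passed, and neither did nearly all others (0.0139% of genes, 2 in all). With the date in the labels as a block, limma called 22 of all genes and again 0 of the 44, and so did edgeR and DESeq2 for the 44. Atg4d had the only unadjusted p under 0.05, with a log2 fold change of 0.18 for BMDM-HG-exo against BMDM-NG-exo (SE 0.079, adjusted p = 0.694). For Tecpr1 the difference was 0.064 and for Optn -0.053. Tecpr1 varied most within the BMDM-HG-exo libraries, between 17650 and 20882. Of the 44 genes, 43 had 95% intervals within 0.5 in either direction, the exception being Atg10 with a bound of 0.503. Bnip3l was the only gene whose groups did not overlap, lower with BMDM-HG-exo, against 3.86% of all genes.

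**Figure D4:**
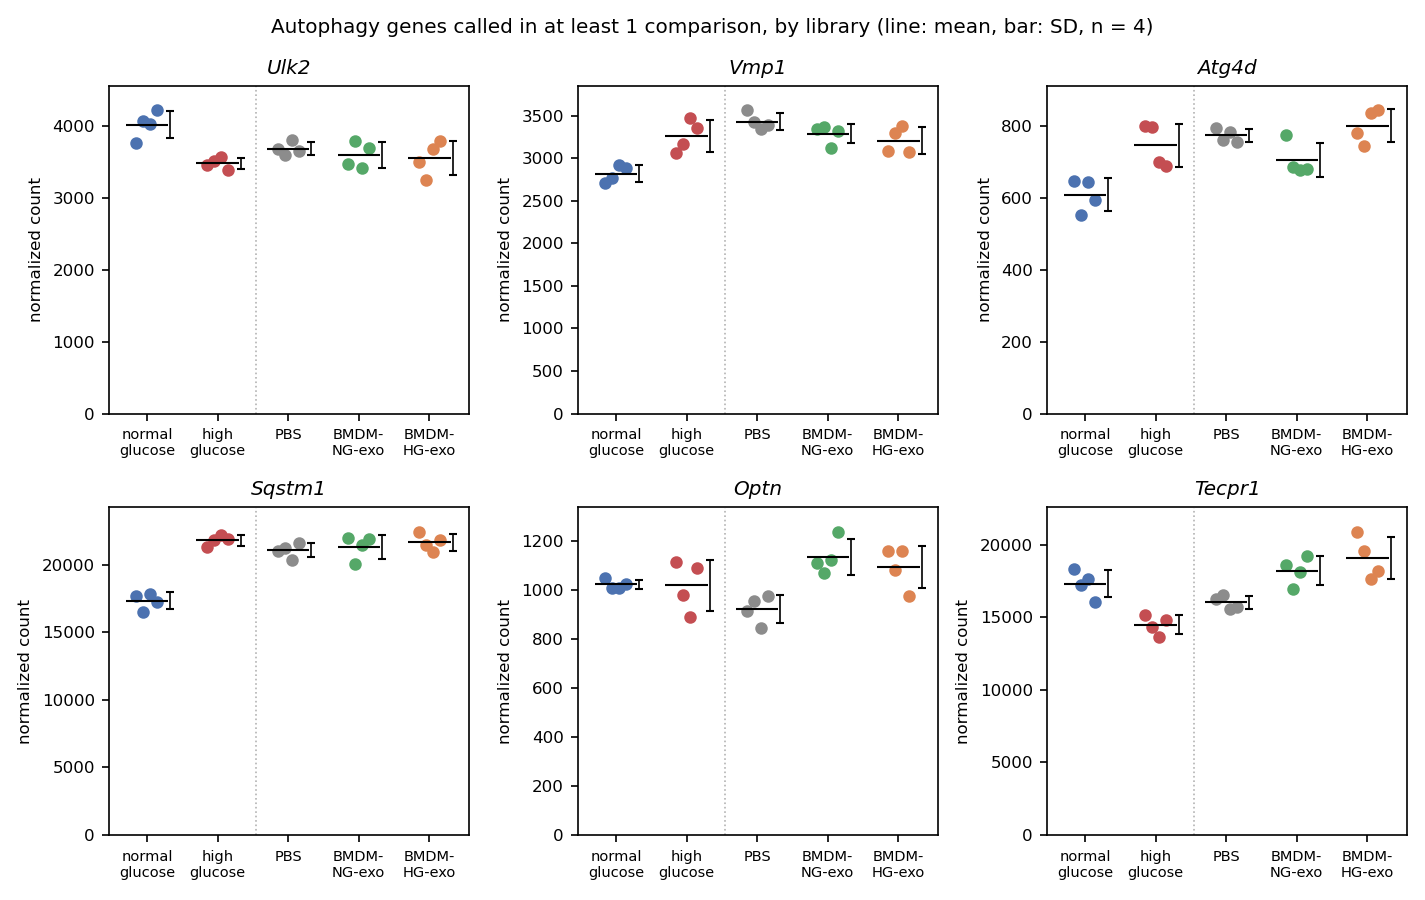
Normalized counts (vertical axes from 0) of the 6 genes called in at least 1 comparison, in each of the 20 libraries by group, with the mean (line) and SD (bar) of 4 libraries. Sqstm1, Vmp1 and Atg4d are lowest in normal glucose, Tecpr1 is lowest in high glucose and highest with BMDM-HG-exo, and Optn is lowest with PBS.

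Whether the glucose of the culture moved these genes as exosomes from such cultures did was tested with the contrast of the glucose effect minus the exosome effect (BMDM-HG-exo against BMDM-NG-exo) in 1 fit of all 20 libraries. It was called for 3 of the 44 genes (6.82%), against 4.74% of all 14449 genes. For Sqstm1 the glucose effect exceeded the exosome effect by 0.31 (SE 0.047, adjusted p = 1.41e-05) and for Vmp1 by 0.25 (SE 0.066, adjusted p = 0.0199). For Tecpr1 the difference was -0.32 (SE 0.061, adjusted p = 5.13e-04). Its glucose effect was -0.26, and its exosome effect of 0.064 was not called. The 8 glucose libraries are the same as above, so the calls are not independent of the earlier ones. Ulk2 had a difference of -0.19 (adjusted p = 0.099) and Atg4d, whose exosome effect had the sign of its glucose effect, one of 0.11. The call of Vmp1 was lost without high glucose library 4 (adjusted p = 0.0651) or 6 (0.0512), with quantile normalization (0.058), without the trend (0.0605) and with a block (0.14). Those of Sqstm1 and Tecpr1 held in all 20 fits that left out 1 library. Of these, the fits without a PBS library leave the differences as they were.

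**Figure D5:**
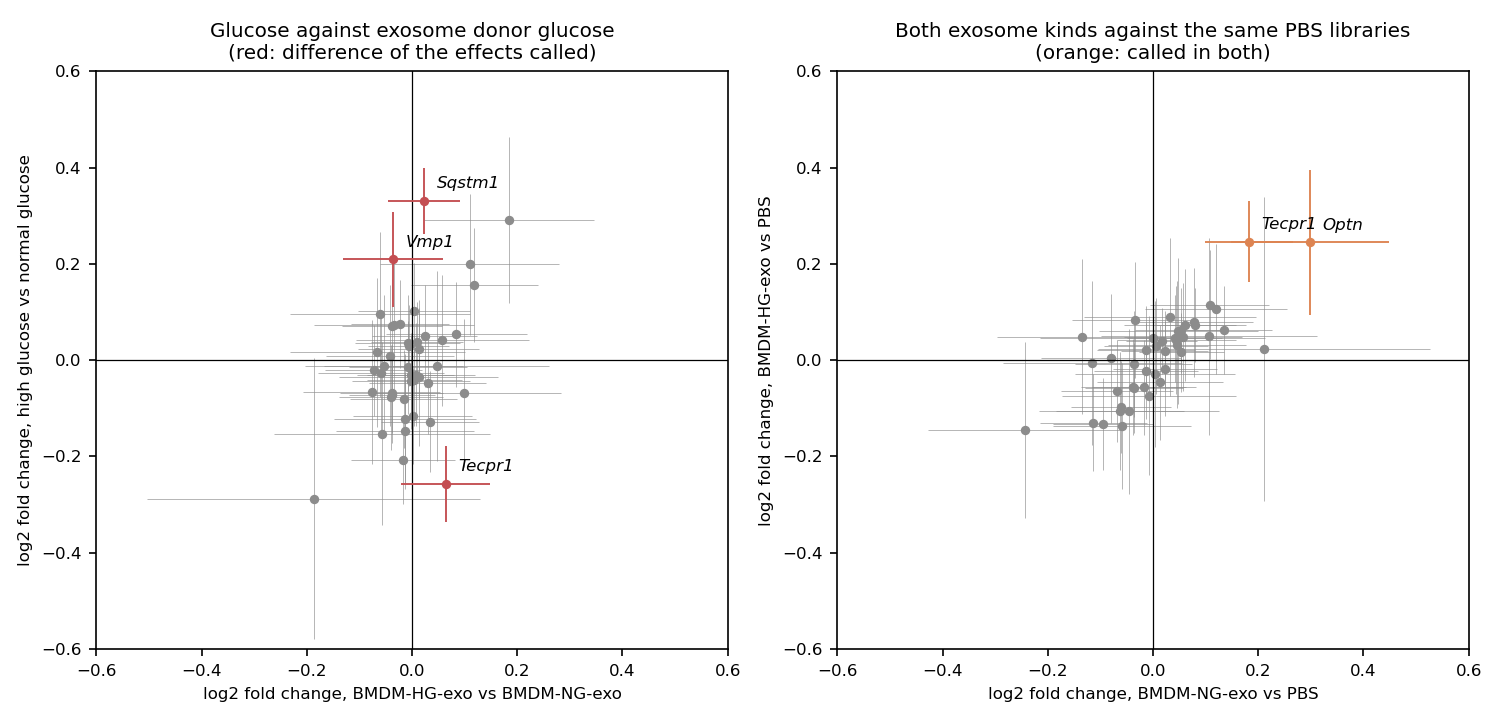
Log2 fold changes of the 44 genes with 95% intervals, with the glucose effect against the exosome effect on the left and both exosome kinds against the same PBS libraries on the right. On the left Sqstm1 and Vmp1 lie high and Tecpr1 low near an exosome effect of 0, and on the right Tecpr1 and Optn are the genes called in both comparisons.

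The other 38 genes, among them Becn1, Atg5, Atg7, Atg16l1 and Map1lc3b, were not called in any of the 6 comparisons.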

How the data were processed

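RNA was measured in 20 stranded total RNA libraries of mouse BMDM. The authors mapped the reads with STAR 2.5.3a to GRCm38, counted them per gene with FeatureCounts 2.0.1 (read 2 as the sense strand) and divided the counts by DESeq2 1.20.0 size factors. The deposited signal is this normalized count, and each of its columns was matched to a sample. Whole reads were recovered from its steps (tolerance 0.001), with size factors between 0.79 and 1.25. They served for depth, edgeR 4.0.16 and DESeq2 1.42.0. Names, coordinates and exon lengths came from GENCODE M21 (14421 of the listed genes matched), and promoters from RefSeq. No copied library was found among the pairs of a group.

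Log2(normalized count + 1) was tested in R 4.3.3 with lmFit and eBayes (with trend) of limma 3.58.1. Genes needed a mean of 10 or more, in 8 glucose, 12 exosome or all 20 libraries. Comparisons within the exosome experiment also required a log2 fold change of 0.15 or more in either direction. The numbers in the labels of the glucose libraries and the dates of the exosome libraries entered as a block in 1 alternative, and libraries that share a date had correlated deviations of 0.012 on average (12 pairs), against -0.0039 for other pairs. The other alternatives changed the pseudocount, filter, scaling, trend, test or fold limit, or left out 1 library. The fits were tested on simulated data.

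The members, the gene lists and the tests were chosen with earlier results of these data known. Library values were given for genes called in any comparison, for the largest change of each role without a call, and for the 5 smallest p in the comparison of BMDM-HG-exo and combined controls. Of each other list up to 4 called genes were named. Atg101, Atg7, Atg4c and other genes beyond these, which the rule allows by name, are given by their fold changes. Intervals on single libraries were not computed, and depth enters through the spread between libraries. Python 3.11.15 was used with matplotlib 3.10.9, scipy 1.17.1, numpy 2.4.6 and pandas 2.3.3. The small RNA, human and mouse tissue data were not analysed here. A result for the mitophagy list is not reported here.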

Additional observations from a re-analysis of the deposited data

Results flagged for a closer look

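In BMDM-NG-exo, library 1 stood apart from the others for Atg4d, with a normalized count of 776 where the nearest of the other 3 had 685. It was 1 of 60 groups of 4 libraries examined for such a gap, and chance alone gives about 1 in 20. For 3 genes the effect of glucose differed from that of the exosomes by a test of the difference itself. The log2 difference was 0.31 for Sqstm1, 0.25 for Vmp1 and -0.32 for Tecpr1.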

How the results depend on the processing

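No value of the 44 genes changed sign where it was called. In high against normal glucose, 5 of the 44 genes were called as reported, 8 with quantile normalization (3 higher and 5 lower, with Atg7, Nbr1 and Calcoco1 gained), 2 without the trend (Sqstm1 and Atg101) and 3 with the replicate block (Vmp1 and Atg4d lost, with adjusted p = 0.0819 and 0.262), and between 4 and 5 when 1 library was left out. Only numbers 1 and 6 occur in both glucose groups and nothing says what they mark, so the block is no paired test there (all genes fell from 1914 to 788 calls). For the 78 related genes the count was 3 without the trend, 4 with the block and 6 to 15 with 1 library left out. Against PBS, the count of 2 for BMDM-HG-exo became 0 without the trend, 1 with edgeR and 1 to 2 with 1 library left out, and that of 2 for BMDM-NG-exo became 0 without the trend and 1 to 2. The 3 differences between glucose and exosome effect became 2 to 4 with 1 library left out. No library or setting gave a call for BMDM-HG-exo against the combined controls or against BMDM-NG-exo. The exosome dates as a block changed no call of the 44 genes against PBS or the controls. Over all genes, calls without the trend were 654 for glucose, 1 for the combined controls (29 as reported), 295 and 95 against PBS (698 and 432), 1 between the exosome kinds (2) and 324 for the difference of effects (685, and 296 with the block). For the combined controls they were also 47 with a pseudocount of 5, 19 with quantiles, 136 with DESeq2 and 1 to 204 with 1 library left out. Between the exosome kinds they were 5 with a pseudocount of 5, a mean of at least 50 or TMM factors, 1 with edgeR, 25 with DESeq2, 22 with the block and 1 to 7 with 1 library left out. The causes were not tested.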
